A study of Oryza sativa with 6 samples.

Results

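The transcripts described here encode histones, cyclins and cyclin-dependent kinases, kinesins and replication proteins of rice, together with a family of F-box proteins. They were chosen by words in the deposited gene descriptions, namely histone H1 to H4, cyclin, kinesin, MCM and DNA replication. These words picked 94 transcripts of 92 genes out of the 7194 transcripts of 6535 genes in the deposited table. Messenger RNA of leaves from 4-week-old plants at the young stage was sequenced in 6 libraries, 2 for each of 3 genotypes. WT plants were nontransgenic, OX plants overexpressed Osa-MIR171f in the whole body and came from line 3 (OX library 1) and line 5 (OX library 2), and KO plants carried a CRISPR-Cas9 knockout of Osa-mir171f. Both KO libraries bear line number 2 (K/O_2 and K/O_2_1). The labels state neither the promoter of the transgene nor the edited allele. Separate plants are not stated for the WT pair or for the KO pair, so the spread behind each p-value is that between these samples and may be technical.

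The name of the group holds for fewer than all of its members. Of the 94 transcripts, 48 (of 47 genes) have descriptions that name an F-box together with the word cyclin, for example as a cyclin-like F-box domain. This wording does not show that each protein has a cyclin-like domain apart from its F-box. None of these 48 carried the gene ontology term cell cycle in the authors' deposited table of terms, although 45 of them carried some term. Another transcript, Os01g0757500, was picked only because calcyclin contains the word cyclin. The remaining 45 transcripts of 44 genes were 3 linker histones, 11 core histones, 5 cyclins of type A or B, 3 D-type cyclins, 6 other cyclins, 3 cyclin-dependent kinases, 12 kinesins and 2 MCM proteins. The term cell cycle was attached to 16 of them. All 14 histones instead carried the term chromatin.

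Core histones H2A, H2B, H3 and H4 form the nucleosome around which DNA is wound, and linker histone H1 binds the DNA where it enters and leaves the nucleosome. Most histone protein is made while DNA is copied. D-type cyclins with their kinases promote entry into DNA synthesis, B-type cyclins drive mitosis, MCM proteins form the helicase of the replication fork, and many kinesins move chromosomes or build the spindle and the division plate. In grass leaves cell division is concentrated at the leaf base, and the mature blade consists of cells that no longer divide. F-box proteins select substrates for SCF ubiquitin ligases, and the family takes its name from cyclin F rather than from a role in division.

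The authors kept only transcripts that passed a 2-fold change and an unadjusted p of 0.05 in 1 or more of their 3 comparisons. A member was therefore bound to differ somewhere, and numbers of called members are read here only against the share called among all listed transcripts. Levels are CPM, counts scaled to the authors' effective library totals, which ran from 23869522 to 34214364 per library. Levels of different genes are compared only as TPM, the authors' deposited length-scaled values, which take account of transcript length. A transcript is called when its adjusted p in edgeR's quasi-likelihood test lies below 0.05, and log2 fold changes carry their standard error after the ± sign. In OX against WT, 25.0% of all tested transcripts were called higher and 19.0% lower, with a median log2 fold change of 0.284. In KO against WT the shares were 25.0% and 11.0% and the median 0.434. In OX against KO they were 13.3% and 25.0%, with a median of -0.407. The 3 comparisons share libraries, so their values stand side by side and were not correlated. In bulk leaf RNA, fewer cells of a type and less RNA per cell cannot be told apart.

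Markers of the mature green leaf matched the labelled tissue. The 39 listed transcripts of this list made up 11.3% and 12.0% of the effective total in WT, 4.52% and 4.85% in OX, with 7.40% and 7.29% in KO. Of the 39, edgeR called none higher and 33 lower in OX, and none higher and 29 lower in KO. The lower calls were 84.6% in OX and 74.4% in KO, beside 19.0% and 11.0% of all tested transcripts. At an unadjusted p below 0.05 edgeR had 1 higher in OX and none in KO, and DESeq2's Wald test had none in either. Among 9 listed markers of the young leaf base and meristem, 1 was called higher and 2 lower in OX, and none higher and 1 lower in KO. As shares these were 11.1% and 22.2% in OX, and 0.0% and 11.1% in KO. All tested transcripts had 25.0% and 19.0% in OX, and 25.0% and 11.0% in KO. In KO, edgeR had 2 higher and 3 lower at an unadjusted p below 0.05, and DESeq2's Wald test 1 higher and 2 lower. The summed level of these 9 markers was 63.5 and 69.2 CPM in WT, 40.6 and 38.3 in OX, with 73.6 and 65.3 in KO. The 12 root markers summed to 163 and 180 CPM in WT, 184 and 126 in OX, with 340 and 311 in KO. In KO 41.7% of them were called higher and in OX 8.33%, beside 25.0% of all tested transcripts. The 6 pollen or anther markers gave 16.4 and 13.7, 49.8 and 45.3, and 68.8 and 68.8 CPM. The 12 senescence markers gave 428.5 and 590, 350 and 525, and 728 and 1208 CPM. Whether the libraries differ in tissue make-up was not tested. No listed description names a miR171 precursor, so the modified gene gives no check of the genotype labels.

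Over all 94 transcripts, 12 were called higher and 16 lower in OX against WT, 21 higher and 13 lower in KO against WT, and 10 higher and 19 lower in OX against KO. As shares these were 12.8% and 17.0%, 22.3% and 13.8%, and 10.6% and 20.2%, beside 25.0% and 19.0%, 25.0% and 11.0%, and 13.3% and 25.0% of all tested transcripts, so the KO shares were near the background. Without the F-box proteins and the word match, the counts were 8 and 9, 12 and 9, and 9 and 9. These were 17.8% and 20.0%, 26.7% and 20.0%, and 20.0% and 20.0% of the 45 transcripts left. The split depended on the scaling, because other scalings shift every ratio. With DESeq2 size factors the calls over all 94 were 10 and 22, 11 and 16, and 16 and 11 in the same order. With TMM factors computed on the listed transcripts they were 12 and 19, 13 and 16, and 16 and 10, and with plain library totals 18 and 11, 22 and 11, and 13 and 15. These scalings moved the median of all listed transcripts by -0.172, -0.0233 and 0.369 on the log2 scale in OX against WT, by -0.491, -0.399 and 0.195 in KO against WT, and by 0.319, 0.375 and 0.174 in OX against KO. Leaving out OX library 1 gave 4 higher and 10 lower in OX against WT, and leaving out KO library 1 gave 10 higher in KO against WT. The roles differed from each other in direction. The plot of fold changes by role shows 13 of 14 histones below 0 and 12 of 14 cyclins above it in KO. The KO median of all tested transcripts, 0.434, also lay above 0, so the cyclins leaned the same way as the listed transcripts at large.

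**Figure D1:**
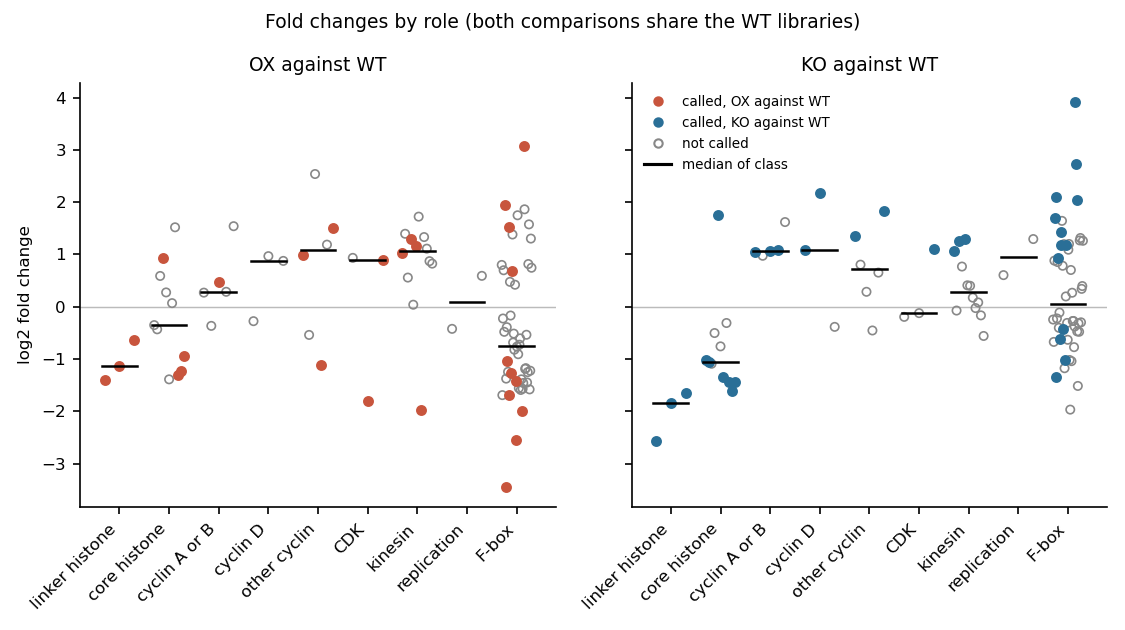
Log2 fold change of each member (circles, vertical axis) by role (horizontal axis) in OX against WT and in KO against WT; filled circles are called by edgeR at an adjusted p below 0.05 and bars are class medians. All 3 linker histones lie below 0 in both panels, and the 5 cyclins of type A or B lie above 0 in KO.

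The linker histones fell in both modified genotypes, and Os04g0253000 was the most abundant member by TPM in every genotype. Os04g0253000, described as similar to histone H1 (IRGSP-1.0, chromosome 4, 9993501 to 9994503), had a mean of 959 TPM in WT, which placed it 55th of the 7194 listed transcripts, 603 TPM in OX and 321 TPM in KO. Its level was 727 and 779 CPM in WT, 337 and 345 in OX, with 212 and 205 in KO. The 3 genotypes did not overlap, with WT highest and KO lowest. Against WT, the log2 fold change of Os04g0253000 was -1.14 ± 0.05 in OX (adjusted p = 0.000195) and -1.85 ± 0.05 in KO (adjusted p = 6.38e-05). It stood higher in OX than in KO (0.71 ± 0.05, adjusted p = 0.000904).

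Os03g0799000, the second gene described as similar to histone H1 (chromosome 3, 33304497 to 33305962), stood at 241 and 277 CPM in WT, 95.7 and 102 in OX, with 43.6 and 43.9 in KO. The order of the genotypes was the same as for Os04g0253000, again without overlap. The change was -1.39 ± 0.08 in OX against WT (adjusted p = 0.000412), -2.57 ± 0.09 in KO against WT (adjusted p = 9.05e-05) and 1.17 ± 0.08 in OX against KO (adjusted p = 0.000832). By TPM it ranked 164th of the listed transcripts in WT, 308th in OX and 826th in KO. For both genes all 3 calls held under each of the 13 alternatives run.

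Each of these H1 genes overlaps a listed transcript described only as hypothetical. Os04g0252850 shares 778 bases of span with Os04g0253000 and had counts of 180 and 300 in WT, 98 and 73 in OX, with 28 and 32 in KO, and it was called lower in both genotypes (log2 fold changes -1.90 and -3.12, adjusted p = 0.0281 and 0.00678). Os03g0799050, which overlaps Os03g0799000 by 868 bases, had 19 and 28, 12 and 4, and 3 and 3 counts and was not called. Their counts were small beside those of the H1 genes, which reached 18767 and 18605 in WT for Os04g0253000. The sources used here do not say whether counting used strand, so reads of overlapping partners cannot be told apart.

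The other linker histone, Os07g0184800, is described as similar to a variant of histone H1 (chromosome 7, 4483447 to 4484756). It stood at 128 and 148 CPM in WT, 87.1 and 90.3 in OX, with 44.1 and 44.0 in KO. It fell in KO against WT (-1.65 ± 0.08, adjusted p = 0.000282) and was higher in OX than in KO (1.01 ± 0.08, adjusted p = 0.00137). In OX against WT it fell by 0.64 ± 0.08 (adjusted p = 0.00641), and that call was lost with plain library totals (adjusted p = 0.101) and without OX library 1 (adjusted p = 0.0503). Summed over the 3 linker histones, the level was 1095 and 1205 CPM in WT, 520 and 537 in OX, with 300.0 and 293 in KO. In TPM the same sum was 1258 and 1350 in WT, 828 and 838.5 in OX, with 419 and 412 in KO. The log2 change of the mean linker sum in OX was -1.122 in CPM and -0.646 in TPM, so its size depended on the unit. In KO it was -1.956 and -1.65.

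Of the 11 core histone transcripts, 6 were called lower and 1 higher in KO against WT. In OX against WT 3 were called lower and 1 higher, and in OX against KO 5 higher and 1 lower. The lower calls were 54.5% of the class in KO, beside 11.0% of all tested transcripts, and 27.3% in OX, beside 19.0%. The higher calls were 9.09% in each, beside 25.0%. In OX against KO the higher calls were 45.5%, beside 13.3%, and the lower calls 9.09%, beside 25.0%. The median log2 fold change of the 11 was -1.05 in KO and -0.352 in OX, against 0.434 and 0.284 over all tested transcripts. The OX median became 0.017 with plain library totals, while the KO median stayed between -1.54 and -0.857 under the 3 other scalings. The 6 lower calls in KO and the 3 lower calls in OX held in all 13 alternatives. In OX, edgeR had 6 lower and 2 higher at an unadjusted p below 0.05, and DESeq2's Wald test called 5 lower and 1 higher. With DESeq2 size factors 5 were called lower in OX, and the 5 higher calls in OX against KO became 3 without OX library 1 or KO library 1, 2 without KO library 2, and 8 with DESeq2 size factors or TMM factors.

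Os10g0539500, a histone H4 gene (chromosome 10, 21019357 to 21019902), was the most abundant core histone with a mean of 236 TPM in WT, 170.6 TPM in OX and 106 TPM in KO. Its libraries gave 115 and 112 CPM in WT, 63.3 and 55.2 in OX, with 43.2 and 41.0 in KO, with no overlap between genotypes. Os10g0539500 fell in OX (-0.94 ± 0.08, adjusted p = 0.00169) and in KO (-1.43 ± 0.09, adjusted p = 0.000459). It was higher in OX than in KO (0.49 ± 0.08, adjusted p = 0.0207), a call lost without OX library 1 (0.0714), KO library 1 (0.0931) or KO library 2 (0.140).

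Another pair of core histones on chromosome 7 also fell in both genotypes. Os07g0549900, histone H4 (chromosome 7, 21827202 to 21827703), went from 28.1 and 26.0 CPM in WT to 11.5 and 11.6 in OX and 9.55 and 8.04 in KO (log2 fold changes -1.23 ± 0.13, adjusted p = 0.00291, and -1.62 ± 0.13, adjusted p = 0.00124). Os07g0545300, histone H2A (chromosome 7, 21589820 to 21590917), gave 30.2 and 29.4 CPM in WT, 11.9 and 12.2 in OX, with 11.0 and 11.0 in KO. Its falls were -1.31 ± 0.09 in OX (adjusted p = 0.000760) and -1.44 ± 0.10 in KO (adjusted p = 0.000638). Neither gene was called between OX and KO.

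In a second set of 3 genes the fall was called in KO and not in OX. Os05g0574300, histone H2B.2, gave 16.9 and 17.7 CPM in WT, 17.3 and 19.0 in OX, with 6.75 and 6.80 in KO. The WT and OX libraries overlapped and both KO libraries lay below them. It fell in KO against WT (-1.35 ± 0.11, adjusted p = 0.00148) and was higher in OX than in KO (1.42 ± 0.11, adjusted p = 0.00126), so that the difference between the modified genotypes itself passed the test. Os01g0153300, histone H2B.1, gave 51.0 and 55.1, 40.1 and 43.0, and 26.8 and 25.2 CPM in WT, OX and KO, with a KO fall of -1.03 ± 0.08 (adjusted p = 0.00134). Os01g0835900, histone H4, gave 22.9 and 25.1, 17.3 and 18.3, and 11.0 and 12.1 CPM, with a KO fall of -1.05 ± 0.11 (adjusted p = 0.00360). In Os01g0153300 and Os01g0835900 both OX libraries also lay below both WT libraries, so the missing OX call does not show an unchanged level. Both were higher in OX than in KO (0.67, adjusted p = 0.00645, and 0.62, adjusted p = 0.0246). The first of these calls was lost without KO library 2 (0.0584), and the second without either OX library (0.0957 and 0.137) or either KO library (0.154 and 0.0904).

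The remaining core histones were low or went the other way. Os03g0279200, histone H2A, stood at 6.35 and 6.996 CPM in WT, 11.7 and 13.8 in OX, with 4.99 and 4.42 in KO. It rose in OX against WT (0.93 ± 0.16, adjusted p = 0.0203), a call lost without any 1 of the WT libraries (0.102 and 0.0734) or OX libraries (0.0612 and 0.135), and it was higher in OX than in KO (1.44 ± 0.17, adjusted p = 0.00507). Os04g0419600, described as histone H3, gave 1.01 and 0.838 CPM in WT, 0.945 and 1.29 in OX, with 3.18 and 3.04 in KO. It was the single core histone called higher in KO (1.75 ± 0.29, adjusted p = 0.0197) and was lower in OX than in KO (-1.47 ± 0.28, adjusted p = 0.0314). The KO call was lost without WT library 1 (0.0757), WT library 2 (0.106), KO library 1 (0.101) or KO library 2 (0.0886), with DESeq2 size factors (0.0641) and with the replicate block (0.0524). The call between OX and KO was lost with DESeq2 size factors (0.0755), TMM factors (0.0869) and the replicate block (0.0736), and without any 1 of the 6 libraries, with adjusted p from 0.0511 to 0.181. Os02g0684500 (H4), Os05g0113900 (H2A) and Os06g0159725 (H3) were not called in any comparison, at means of at most 2.23 CPM.

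Summed over the 11 core histones, the level was 275 and 277 CPM in WT, 177 and 177 in OX, with 118 and 114 in KO. In TPM the same sum was 511 and 501 in WT, 447 and 432.5 in OX, with 253 and 244 in KO. The log2 change of the mean sum in OX was -0.637 in CPM and -0.204 in TPM, so its size depended on the unit. Histone genes have near-identical copies, whose reads the authors' counting may have divided between genes. The fall in histone level stood beside the lower mature leaf markers given above, but the order of OX and KO differed. Against WT, the summed CPM of the mature leaf markers changed by -1.313 on the log2 scale in OX and -0.666 in KO. The sums changed by -0.637 and -1.25 for core histones, and by -1.122 and -1.956 for linker histones. In TPM the changes in OX and KO were -0.833 and -0.382 for the leaf markers. They were -0.204 and -1.025 for core histones, and -0.646 and -1.65 for linker histones. The part of either the histone levels or the leaf markers in the other was not tested.

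**Figure D2:**
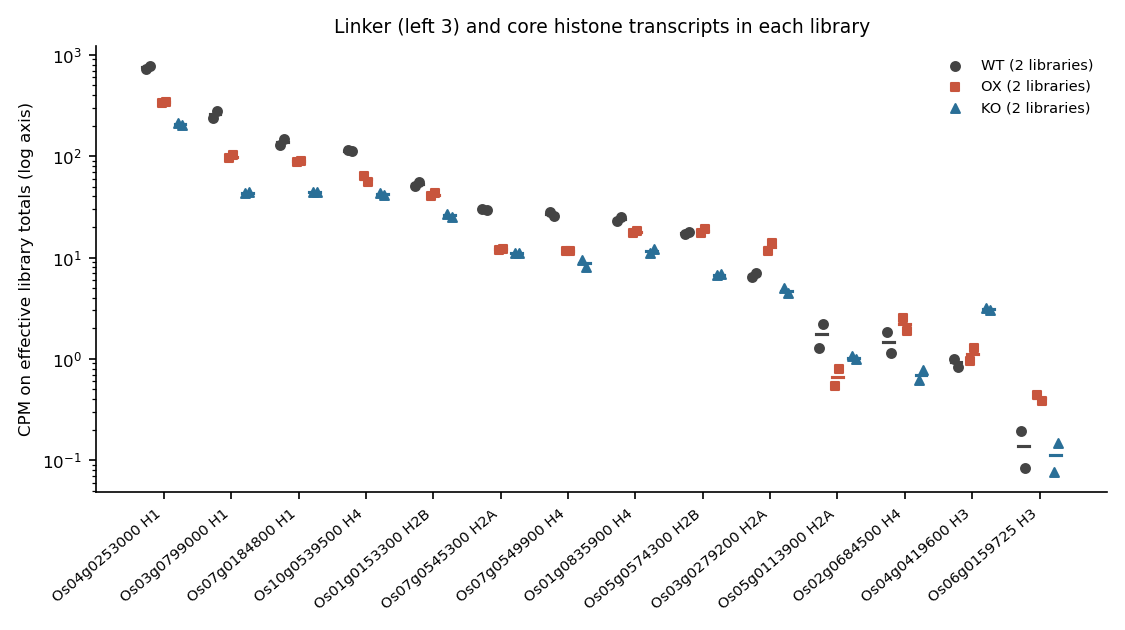
CPM (log axis) of the 3 linker histones and 11 core histones in each library, as points by genotype with the group mean as a bar. The linker histone Os04g0253000 stands between 727 and 779 CPM in WT and between 205 and 212 in KO, and Os04g0419600 is the core histone with its highest values in KO.

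Cyclins that changed in KO rose. Of the 14 of all types, 7 were called higher and none lower in KO against WT (median log2 fold change 1.06). In OX against WT 3 were called higher and 1 lower, and in OX against KO none higher and 5 lower. The higher calls were 50.0% of the class in KO and 21.4% in OX, beside 25.0% of all tested transcripts in each. The lower calls were 7.14% in OX against WT, beside 19.0%, and 35.7% in OX against KO, beside 25.0%. The KO median of all tested transcripts was 0.434. At an unadjusted p below 0.05 edgeR gave 9 higher and 1 lower in KO, and 2 higher and 9 lower in OX against KO. DESeq2's Wald test, run on the same effective totals, called 7 higher and none lower in KO, and none higher and 7 lower in OX against KO. Of the 5 lower edgeR calls in OX against KO, only that of Os03g0203800 held under every other scaling. Of the 7 higher edgeR calls in KO, only that of Os02g0801300 was lost under another scaling.

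Of the 5 transcripts of A- or B-type cyclins, 4 lie on chromosome 2 and 1 on chromosome 5. Os02g0800500 (transcript 01, chromosome 2, 34114274 to 34125876) and Os02g0801200 (34089732 to 34101310), both described as similar to cyclin B, lie 12964 bases apart. Os02g0800500 gave 21.3 and 19.4 CPM in WT, 25.0 and 24.0 in OX, with 40.5 and 43.2 in KO. It rose in KO against WT (1.04 ± 0.09, adjusted p = 0.00174) and was not called in OX against WT (0.27 ± 0.09, adjusted p = 0.177). Os02g0801200 gave 18.4 and 17.1, 24.7 and 24.3, and 36.7 and 37.8 CPM, and its KO rise was 1.07 ± 0.09 (adjusted p = 0.00121). In OX it rose by 0.47 ± 0.08 (adjusted p = 0.0224), a call that DESeq2 size factors removed (0.134), as did leaving out WT library 2 (0.0896), OX library 1 (0.116), OX library 2 (0.0991), KO library 1 (0.0669) or KO library 2 (0.0668). Both KO rises held in all 13 alternatives.

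Both genes were lower in OX than in KO, by -0.77 ± 0.09 for Os02g0800500 (adjusted p = 0.00524) and by -0.60 ± 0.08 for Os02g0801200 (adjusted p = 0.00981). The first call was lost with TMM factors (0.0698). The second was lost with DESeq2 size factors (0.163), with TMM factors (0.284) and without OX library 1 (0.0648), OX library 2 (0.0710), KO library 1 (0.0667) or KO library 2 (0.0812). Os02g0801300, similar to cyclin B1-2 (34147099 to 34154432), gave 3.25 and 3.35 CPM in WT, 4.19 and 3.86 in OX, with 7.71 and 6.40 in KO. Its KO rise of 1.09 ± 0.20 (adjusted p = 0.0262) did not hold with DESeq2 size factors (0.196), with TMM factors (0.131), with the replicate block (0.0594) and without any 1 library, where adjusted p ran from 0.0636 to 0.148. These genes share a description and lie close together, so reads of near-identical stretches may have been shared. The second transcript of Os02g0800500 and Os05g0501350, similar to cyclin B1-5, stayed under 2 CPM in every library and were not called. The 5 transcripts summed to 43.7 and 41.3 CPM in WT, 55.5 and 54.0 in OX, with 87.4 and 90.2 in KO.

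Of 3 D-type cyclins, 2 rose in KO and none was called in OX, where edgeR had 1 higher and 1 lower at an unadjusted p below 0.05. The higher calls were 66.7% in KO and 0.0% in OX, beside 25.0% of all tested transcripts in each, in a class of only 3. Os03g0203800 (chromosome 3, 5441845 to 5444188) gave 25.1 and 26.7 CPM in WT, 22.6 and 20.1 in OX, with 56.3 and 53.8 in KO. WT and OX lay close together and both KO libraries far above them. The gene rose in KO against WT (1.09 ± 0.09, adjusted p = 0.00149) and was lower in OX than in KO (-1.37 ± 0.09, adjusted p = 0.000723), and both calls held in all 13 alternatives. Os07g0556000 (chromosome 7, 22169522 to 22171723) gave 2.01 and 1.55, 3.15 and 3.83, and 8.90 and 7.20 CPM, in the order WT, OX and KO. Its KO rise of 2.17 ± 0.26 (adjusted p = 0.00544) held in all 13 alternatives. It was lower in OX than in KO (-1.20 ± 0.24, adjusted p = 0.0389), but this call was lost under each of the other scalings (0.0664 to 0.140), with the replicate block (0.0832) and without OX library 1 (0.219), OX library 2 (0.131), KO library 1 (0.202) or KO library 2 (0.102). The other D-type cyclin, Os08g0421100, similar to cyclin D1-2, stayed under 1.5 CPM and was not called. With plain library totals and with DESeq2's Wald test, 1 D-type cyclin was called higher in OX against WT, and with DESeq2 size factors 1 was called lower.

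Cyclins outside the A, B and D types included 1 that rose in both genotypes under every alternative. Os02g0133000, Cyclin-T1-1 (chromosome 2, 1734447 to 1737461), gave 15.99 and 18.01 CPM in WT, 34.8 and 32.8 in OX, with 42.7 and 43.7 in KO. T-type cyclins pair with kinases that act on RNA polymerase II and are not part of the division cycle. It rose in OX (0.99 ± 0.09, adjusted p = 0.00198) and in KO (1.34 ± 0.09, adjusted p = 0.000763), in all 13 alternatives, and at 39.6 TPM in OX and 44.1 TPM in KO it was the most abundant cyclin. Os08g0479300, with a cyclin A/B/D/E domain, gave 1.67 and 1.51 CPM in WT, 4.60 and 4.38 in OX, with 6.52 and 4.75 in KO. Its rise was 1.498 ± 0.25 in OX (adjusted p = 0.0162) and 1.82 ± 0.25 in KO (adjusted p = 0.00933). The OX call was lost without WT library 1 (0.0690), WT library 2 (0.0875), OX library 1 (0.0875) or OX library 2 (0.0778), and the KO call without WT library 2 (0.0594).

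Os04g0628900, Cyclin-P1-1, was the only cyclin called lower in OX against WT. P-type cyclins are named for their likeness to a yeast cyclin of phosphate signalling. It gave 17.6 and 23.3 CPM in WT, 9.29 and 9.70 in OX, with 13.5 and 16.3 in KO, with an OX fall of -1.11 ± 0.18 (adjusted p = 0.0158). The call was lost with plain library totals (0.0565) and without WT library 2 (0.0510), OX library 1 (0.102) or OX library 2 (0.0902). Os03g0225200, also with a cyclin A/B/D/E domain, was called only between OX and KO (-1.34 ± 0.28, adjusted p = 0.0446), at 1.63 and 2.39 CPM in WT, 1.32 and 1.43 in OX, with 3.72 and 3.29 in KO. That call was lost under each of the other scalings (0.0695 to 0.132), with the replicate block (0.0865) and without OX library 1 (0.2402), OX library 2 (0.195), KO library 1 (0.199) or KO library 2 (0.140). The 2 transcripts with a cyclin-related 2 domain, Os04g0544200 and Os05g0326400, were not called.

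The 3 cyclin-dependent kinases each behaved differently. Os11g0242500, similar to kinase C of this family, which in plants pairs with T-type cyclins, gave 4.57 and 5.24 CPM in WT, 1.54 and 1.26 in OX, with 4.95 and 4.06 in KO. WT and KO overlapped and both OX libraries lay below them. It fell in OX against WT (-1.80 ± 0.24, adjusted p = 0.00778; 0.0618 without OX library 2) and was lower in OX than in KO (-1.68 ± 0.24, adjusted p = 0.0115). The second call was lost without OX library 1 (0.0572), OX library 2 (0.0852) or KO library 1 (0.0689). Os12g0203000, the most abundant of the 3 by TPM, gave 10.4 and 8.002 CPM in WT, 18.1 and 16.2 in OX, with 20.2 and 19.5 in KO. Its rise was 0.90 ± 0.16 in OX (adjusted p = 0.0213) and 1.11 ± 0.16 in KO (adjusted p = 0.0116).

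These calls of Os12g0203000 were lost with DESeq2 size factors (0.0542 and 0.110), and the KO call also with TMM factors (0.0664). The OX call was lost without WT library 2 (0.0530), OX library 1 (0.118), OX library 2 (0.0730), KO library 1 (0.0568) or KO library 2 (0.0564), and the KO call without KO library 1 (0.0768) or KO library 2 (0.0671). Os02g0123100, similar to kinase A-2 of this family, the type central to plant cell division, gave 2.79 and 2.85 CPM in WT, 5.20 and 5.58 in OX, with 2.91 and 2.01 in KO. Both OX libraries lay above the other 4, but the difference from WT missed the threshold (0.93 ± 0.25, adjusted p = 0.0921).

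**Figure D3:**
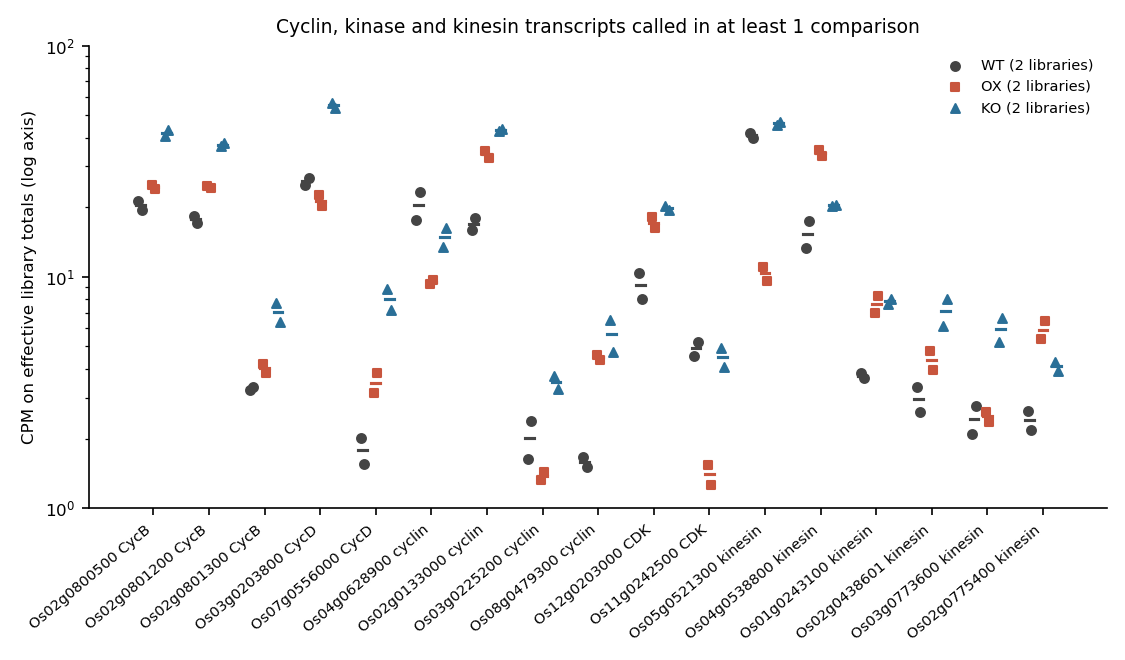
CPM (log axis) of the cyclins, cyclin-dependent kinases and kinesins called in at least 1 comparison, with each library as a point and the group mean as a bar. The B-type cyclins Os02g0800500 and Os02g0801200 and the D-type cyclin Os03g0203800 are highest in KO, and the kinesin Os05g0521300 is lowest in OX.

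Kinesins were called higher as often as the listed transcripts at large. Of the 12, 3 were called higher and 1 lower in OX against WT, 3 higher and none lower in KO against WT, and 1 higher and 2 lower in OX against KO. The higher calls were 25.0% of the class in OX and in KO, the same share as among all tested transcripts (25.0% in each). DESeq2's Wald test gave the same counts, and at an unadjusted p below 0.05 edgeR gave 5 higher and none lower in KO. The KO calls went to 0 with DESeq2 size factors and with TMM factors, under which the median of the class in KO turned from 0.286 to -0.205 and -0.112. They also went to 0 without WT library 1, WT library 2, KO library 1 or KO library 2, and to 1 without either OX library or with the replicate block.

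Os05g0521300 (transcript 04, chromosome 5, 25918401 to 25931524), similar to a kinesin motor protein, had the clearest change. It gave 41.8 and 39.8 CPM in WT, 11.1 and 9.62 in OX, with 45.2 and 46.9 in KO. The OX fall against WT passed the test (-1.98 ± 0.10, adjusted p = 0.000253). It was lower in OX than in KO (-2.15 ± 0.10, adjusted p = 0.000247) and missed the threshold in KO against WT (0.17 ± 0.10, adjusted p = 0.687). Both calls held in all 13 alternatives. Another pair of listed transcripts of this gene is described as a histidine-containing phosphotransfer protein, so the gene model joins different descriptions. Transcript 02 of the gene gave 6.58 and 5.20 CPM in WT, 0.693 and 1.29 in OX, with 3.72 and 4.39 in KO, while transcript 03 gave 3.18 and 0.335 in WT, 1.07 and 1.08 in OX, with 0.115 and 0.110 in KO. The labels do not say how reads were divided among these transcripts.

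Os04g0538800, similar to a kinesin heavy chain (chromosome 4, 26962438 to 26968050), gave 13.3 and 17.4 CPM in WT, 35.5 and 33.2 in OX, with 20.3 and 20.4 in KO. It rose in OX against WT (1.16 ± 0.15, adjusted p = 0.00604), in all 13 alternatives. It was also higher in OX than in KO (0.75 ± 0.14, adjusted p = 0.0323), a call lost with the replicate block (0.0602) and without OX library 1 (0.168), OX library 2 (0.121), KO library 1 (0.171) or KO library 2 (0.165). Os01g0243100 gave 3.83 and 3.65, 6.99 and 8.27, and 7.63 and 8.04 CPM in WT, OX and KO. Its rises of 1.03 in OX (adjusted p = 0.0169) and 1.07 in KO (adjusted p = 0.0176) were lost without any 1 library of the groups compared, with adjusted p from 0.0509 to 0.105 and from 0.0732 to 0.107. The KO rise was also lost with DESeq2 size factors (0.147) and TMM factors (0.0865).

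Os02g0775400 rose in OX (1.29 ± 0.22, adjusted p = 0.0189) from 2.63 and 2.18 CPM to 5.39 and 6.43, with 4.30 and 3.91 in KO. The call was lost with the replicate block (0.0502) and without WT library 1 (0.0544), WT library 2 (0.0923), OX library 1 (0.0637) or OX library 2 (0.117). Os02g0438601 rose in KO (1.26 ± 0.25, adjusted p = 0.0386), with 3.33 and 2.60 CPM in WT, 4.76 and 3.98 in OX, with 6.14 and 8.04 in KO. Os03g0773600 gave 2.09 and 2.77, 2.62 and 2.37, and 5.25 and 6.66 CPM, with a KO rise of 1.29 ± 0.26 (adjusted p = 0.0371) and a lower level in OX than in KO (-1.26 ± 0.25, adjusted p = 0.0383). The KO calls of these last genes were lost without any 1 of the 6 libraries, with adjusted p from 0.0778 to 0.193 for Os02g0438601 and from 0.0734 to 0.191 for Os03g0773600. The KO call of Os02g0438601 was also lost with DESeq2 size factors (0.216), TMM factors (0.149) and the replicate block (0.0863). Both calls of Os03g0773600 were lost with DESeq2 size factors (0.181 in KO and 0.107 between OX and KO), with TMM factors (0.131 and 0.132) and with the replicate block (0.0679 and 0.0714). Its call between OX and KO was also lost with plain library totals (0.0637), with counts summed per gene (0.0603) and without OX library 1 (0.168), OX library 2 (0.216), KO library 1 (0.0907) or KO library 2 (0.197). The other 6 kinesins were not called in any comparison.

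The 2 MCM transcripts were not called by edgeR, with 1 higher in KO at an unadjusted p below 0.05 and also 1 by DESeq2's Wald test. Os06g0218500, the more abundant by TPM, gave 6.39 and 7.08 CPM in WT, 7.18 and 2.86 in OX, with 9.55 and 10.9 in KO, and its OX libraries lay far apart. Os11g0484300, similar to Mcm2, gave 1.98 and 1.30, 2.84 and 2.10, and 4.10 and 3.95 CPM, and its difference in KO against WT missed the threshold (1.29 ± 0.31, adjusted p = 0.0717). The transcript picked for calcyclin, Os01g0757500, lay between 0.0767 and 1.28 CPM and was not called.

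**Figure D4:**
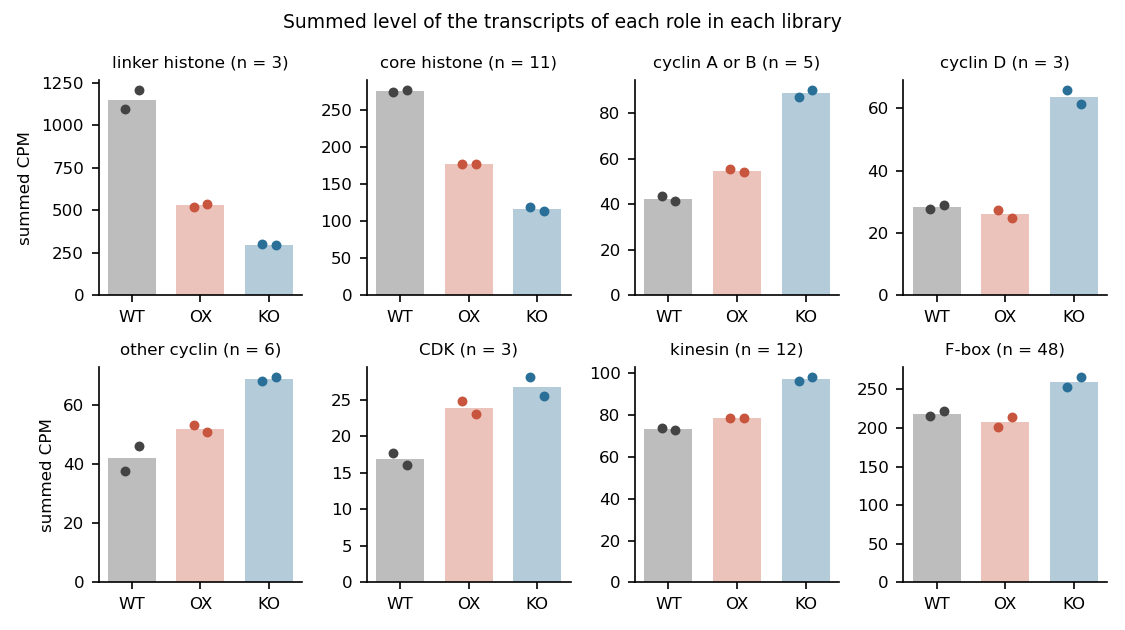
Summed CPM (bars from 0, group means; points, the 2 libraries) of the transcripts of each role by genotype. Linker histones go from 1095 and 1205 CPM in WT to 300.0 and 293 in KO, while cyclins of type A or B go from 43.7 and 41.3 to 87.4 and 90.2.

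The F-box transcripts, the largest class, leaned lower in OX, where 33 of 48 had a negative fold change against WT (median log2 -0.746) and 34 of 48 against KO (median -0.821). Over all tested transcripts the medians were 0.284 against WT and -0.407 against KO. The listed transcripts at large thus also leaned lower in OX than in KO. Summed over the 48, the level in OX against WT changed by -0.074 in CPM and 0.338 in TPM on the log2 scale. The other scalings kept both F-box medians negative, from -0.918 to -0.378 against WT and from -0.648 to -0.448 against KO. In KO against WT 24 were positive and 24 negative, with a median of 0.042 that became -0.451 with DESeq2 size factors, -0.357 with TMM factors and 0.235 with plain library totals. Of 48, 4 were called higher and 7 lower in OX against WT, 9 higher and 4 lower in KO against WT, and 1 higher and 10 lower in OX against KO. As shares of the 48, the higher and lower calls were 8.33% and 14.6% in OX against WT, 18.8% and 8.33% in KO against WT, and 2.08% and 20.8% in OX against KO. All 6 shares lay below those of all tested transcripts, which were 25.0% and 19.0%, 25.0% and 11.0%, and 13.3% and 25.0%. Their calls became 4 and 10, 4 and 9, and 7 and 4 in OX under DESeq2 size factors, TMM factors and plain library totals, and 5 and 5, 6 and 5, and 9 and 2 in KO. Leaving out 1 library at a time gave 2 to 5 higher and 3 to 5 lower in OX, with the fewest without OX library 1, and 4 to 8 higher and 0 to 4 lower in KO, with the fewest without KO library 1. Most were expressed at low level, with a median of 1.32 TPM in WT and a highest value of 29.5 TPM. Of the 48, 3 carried the term for the SCF ubiquitin ligase complex and 5 that for SCF-dependent protein breakdown.

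The most abundant F-box transcript, Os02g0675800 (chromosome 2, 27548414 to 27551592), moved in opposite directions in the modified genotypes. It gave 48.1 and 47.3 CPM in WT, 76.2 and 78.0 in OX, with 35.01 and 36.3 in KO, with no overlap between genotypes. It rose in OX (0.69 ± 0.06, adjusted p = 0.00152), fell in KO (-0.42 ± 0.06, adjusted p = 0.0112) and was higher in OX than in KO (1.11 ± 0.06, adjusted p = 0.000394). The OX rise and the difference between OX and KO held in all 13 alternatives. The KO fall was lost with plain library totals (0.0950) and without WT library 1 (0.0513), KO library 1 (0.0948) or KO library 2 (0.0705).

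On chromosome 9, 3 F-box genes called higher in KO lie within a short stretch. Os09g0341500 (10520072 to 10521663) and Os09g0341600 (10522954 to 10524537) are 1291 bases apart, and Os09g0342000 runs from 10545876 to 10547371. Os09g0341500 gave 0.271 and 0.335 CPM in WT, 2.68 and 2.46 in OX, with 4.18 and 5.05 in KO. It had the largest rise of any member in both genotypes, 3.07 ± 0.29 in OX (adjusted p = 0.00195) and 3.91 ± 0.29 in KO (adjusted p = 0.000971), in all 13 alternatives. Os09g0341600 gave 0.310 and 0.964, 2.08 and 2.54, and 4.22 and 4.21 CPM, with a KO rise of 2.73 ± 0.52 (adjusted p = 0.0322) that did not hold with DESeq2 size factors (0.0601), with TMM factors (0.0537) and without OX library 1 (0.0732), OX library 2 (0.0755), KO library 1 (0.123) or KO library 2 (0.122). Os09g0342000 followed another pattern, with 1.43 and 1.84 CPM in WT, 0.819 and 0.614 in OX, with 6.83 and 6.66 in KO. Os09g0342000 rose in KO (2.04 ± 0.27, adjusted p = 0.00797; 0.0525 without KO library 1) and was lower in OX than in KO (-3.23 ± 0.28, adjusted p = 0.00173). Neighbouring F-box genes may be near-identical copies that share reads.

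Among F-box transcripts that fell in OX, 3 calls held in all 13 alternatives. Os01g0659900 gave 2.25 and 2.47 CPM in WT, 0.126 and 0.292 in OX, with 1.80 and 2.23 in KO. Os01g0659900 fell in OX (-3.46 ± 0.44, adjusted p = 0.00602) and was lower in OX than in KO (-3.23 ± 0.43, adjusted p = 0.00889; 0.0504 without KO library 2). Os03g0321300 gave 3.64 and 4.23, 0.599 and 0.731, and 2.68 and 3.66 CPM, with an OX fall of -2.56 ± 0.29 (adjusted p = 0.00419) and a difference from KO of -2.25 (adjusted p = 0.00777; 0.0666 and 0.05003 without OX library 1 or 2). Os02g0260200 gave 21.8 and 22.3 CPM in WT, 6.33 and 7.28 in OX, with 14.7 and 14.2 in KO. Os02g0260200 fell in OX (-1.70 ± 0.12, adjusted p = 0.000732) and was lower in OX than in KO (-1.09, adjusted p = 0.00412). Its KO fall (-0.61, adjusted p = 0.0333) was lost with plain library totals (0.110), with the replicate block (0.0706) and without WT library 1 (0.115), WT library 2 (0.131), KO library 1 (0.168) or KO library 2 (0.200).

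The other OX falls were less stable. Os02g0671100 fell by 1.26 on the log2 scale (adjusted p = 0.0248), Os03g0708200 by 1.42 (adjusted p = 0.0389), Os08g0462300 by 1.996 (adjusted p = 0.0142) and Os02g0105800 by 1.05 (adjusted p = 0.0494). Their calls were lost without either WT library for Os02g0671100 (0.0915 and 0.104), Os03g0708200 (0.0812 and 0.159) and Os02g0105800 (0.189 and 0.101), and without WT library 1 for Os08g0462300 (0.0736). They were also lost without OX library 1, at 0.0783, 0.181, 0.0943 and 0.200 for Os02g0671100, Os03g0708200, Os08g0462300 and Os02g0105800. Without OX library 2 the last 3 of these were lost at 0.205, 0.0928 and 0.247. Os02g0671100 and Os02g0105800 were lost without KO library 1 (0.0544 and 0.102) or KO library 2 (0.0570 and 0.101). Plain library totals removed the calls of Os02g0671100 (0.0703), Os03g0708200 (0.102) and Os02g0105800 (0.206), and the replicate block those of Os03g0708200 (0.0618) and Os02g0105800 (0.0958). Os08g0462300, at 1.55 and 1.26 CPM in WT, 0.346 and 0.351 in OX, with 1.19 and 1.13 in KO, was also lower in OX than in KO (-1.72 ± 0.32, adjusted p = 0.0275). That call was lost with DESeq2 size factors (0.0604), with TMM factors (0.0693), with the replicate block (0.0621) and without any 1 of the 6 libraries, with adjusted p from 0.0506 to 0.154. Levels of Os02g0671100 were 7.51 and 7.75 CPM in WT, 2.55 and 3.80 in OX, with 12.0 and 14.3 in KO. Its difference between OX and KO (-2.04 ± 0.24, adjusted p = 0.00514) held in all 13 alternatives.

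The F-box transcripts that rose in KO included 3 at moderate level whose calls held in all 13 alternatives. Os01g0812200 gave 19.2 and 20.4 CPM in WT, 14.3 and 15.8 in OX, with 38.5 and 37.1 in KO. It rose in KO (0.93 ± 0.10, adjusted p = 0.00327) and was lower in OX than in KO (-1.32 ± 0.10, adjusted p = 0.000962). Os02g0294100 gave 16.9 and 15.2, 22.2 and 22.4, and 33.9 and 39.2 CPM, with a KO rise of 1.19 ± 0.11 (adjusted p = 0.00233). Os03g0135400 gave 8.21 and 8.21, 10.0 and 12.0, and 17.98 and 19.1 CPM, with a KO rise of 1.17 ± 0.13 (adjusted p = 0.00486). In these last genes OX lay between WT and KO. Both were also lower in OX than in KO (-0.71, adjusted p = 0.0146, and -0.75, adjusted p = 0.0233). Those calls were lost with DESeq2 size factors (0.139 and 0.148), with TMM factors (0.198 and 0.212), without OX library 1 (0.0957 and 0.122), OX library 2 (0.0899 and 0.0529) or KO library 2 (0.0921 and 0.150), and, for Os03g0135400, without KO library 1 (0.112) and with plain library totals (0.0512).

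Another pair of F-box transcripts rose in both genotypes at low level. Os02g0288000 gave 1.90 and 2.30 CPM in WT, 6.58 and 5.52 in OX, with 6.02 and 5.27 in KO, with changes of 1.52 (adjusted p = 0.0104) and 1.42 (adjusted p = 0.0157). Os01g0653700 gave 0.852 and 1.89, 5.58 and 4.998, and 6.37 and 5.38 CPM, with changes of 1.95 (adjusted p = 0.0356) and 2.10 (adjusted p = 0.0323). The OX call of Os02g0288000 was lost without WT library 1 (0.0565) or OX library 1 (0.0677), and its KO call without WT library 1 (0.0808), WT library 2 (0.0515), KO library 1 (0.0903) or KO library 2 (0.0626), and with DESeq2 size factors (0.0709) or TMM factors (0.0538). For Os01g0653700 the calls were lost without any 1 OX or KO library, with adjusted p from 0.0742 to 0.149 in OX and from 0.0760 to 0.143 in KO, and with the replicate block (0.0716 and 0.0688), and the KO call also with DESeq2 size factors (0.0759) and TMM factors (0.0662). The remaining 4 called F-box transcripts were called once each. Os01g0598400 rose in KO (1.70, adjusted p = 0.0146), Os01g0647000 and Os02g0825500 fell in KO (-1.35, adjusted p = 0.0131, and -1.03, adjusted p = 0.0154), and Os01g0806200 was lower in OX than in KO (-2.23, adjusted p = 0.0214). Each of these was lost without KO library 1, at 0.0664, 0.0805, 0.0992 and 0.104 in that order. The call of Os01g0598400 was also lost with DESeq2 size factors (0.0537) and without WT library 2 (0.0758) or KO library 2 (0.0837), that of Os01g0647000 without WT library 1 (0.0668) or WT library 2 (0.0571), that of Os02g0825500 without WT library 1 (0.0719) or KO library 2 (0.107), and that of Os01g0806200 with the replicate block (0.0542) and without OX library 1 (0.124), OX library 2 (0.0661) or KO library 2 (0.0510).

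**Figure D5:**
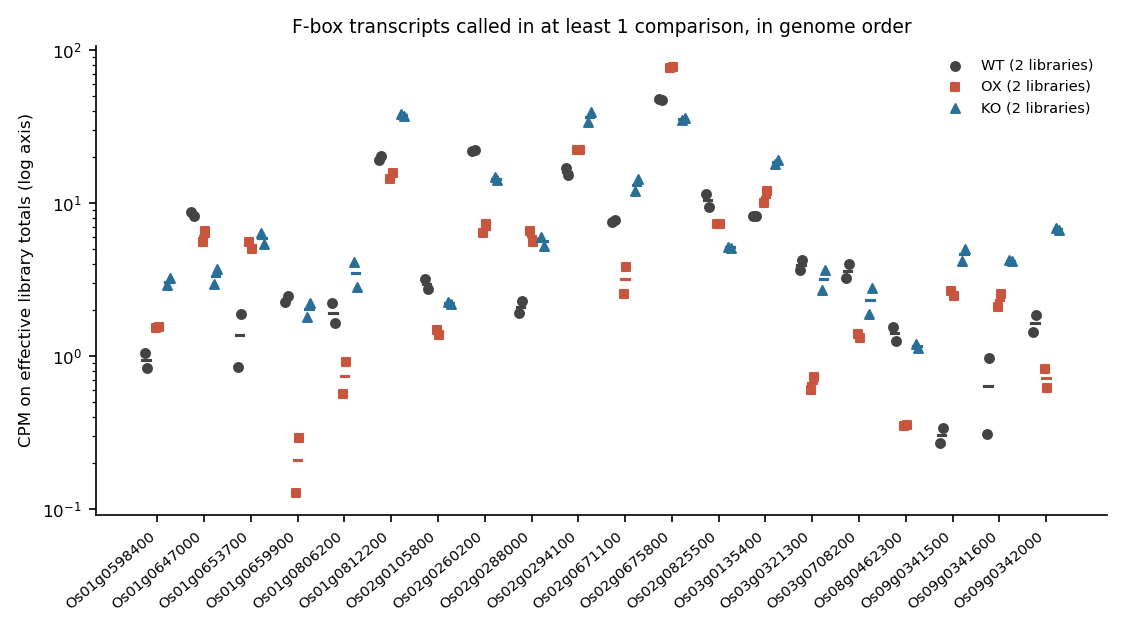
CPM (log axis) of the 20 F-box transcripts called in at least 1 comparison, in genome order, with each library as a point and group means as bars. Os02g0675800 is highest in OX, whereas the chromosome 9 gene Os09g0341500 is lowest in WT and highest in KO.

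Other genes of the division cycle were counted from lists of descriptions that the member rule did not use. Of 32 such listed transcripts, 9 were called higher and none lower in OX against WT, 5 higher and 1 lower in KO against WT, and 5 higher and 3 lower in OX against KO. The higher calls were 28.1% of the 32 in OX and 15.6% in KO, beside 25.0% of all tested transcripts in each. The lower calls were 0.0% in OX beside 19.0%, and 3.12% in KO beside 11.0%. In OX against KO the higher and lower calls were 15.6% and 9.38%, beside 13.3% and 25.0%. At an unadjusted p below 0.05 edgeR gave 17 higher and 1 lower in OX, and DESeq2's Wald test called 11 higher and none lower. By role, tubulins gave 5 higher of 9 in OX and 2 higher and 1 lower in KO, regulators such as E2F factors gave 2 higher of 8 in OX and 3 in KO, and DNA synthesis proteins gave 1 higher of 9 in OX and none in KO, where edgeR had 1 higher and 1 lower at an unadjusted p below 0.05 and DESeq2 none. Genes of chromosome segregation gave 2 higher of 8 in OX and 1 in KO, and 2 kinases of the CDC2L type are counted in both this list and that of the regulators. In the order tubulins, regulators, DNA synthesis and segregation, the higher calls were 55.6%, 25.0%, 11.1% and 25.0% in OX. In KO they were 22.2%, 37.5%, 0.0% and 12.5%, and the share of all tested transcripts was 25.0% in both. The 5 tubulin calls in OX fell to 2 without either WT library, to 1 without OX library 1 and to 0 without OX library 2.

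Tubulins form the microtubules on which kinesins move. Os03g0780600, tubulin beta-1, gave 70.4 and 75.2 CPM in WT, 94.9 and 94.7 in OX, with 167 and 165 in KO, and rose in KO (1.19 ± 0.06, adjusted p = 0.000217) in all 13 alternatives. Os01g0282800, similar to tubulin beta-5, gave 3.33 and 2.39, 11.1 and 14.3, and 2.49 and 1.79 CPM and rose in OX (2.14 ± 0.29, adjusted p = 0.00746; 0.0522 without OX library 2). Os01g0805900, tubulin beta-2, gave 8.64 and 7.58 CPM in WT, 15.0 and 14.1 in OX, with 4.53 and 4.02 in KO, and it was higher in OX than in KO (1.77 ± 0.15, adjusted p = 0.00162). This gene rose in OX (0.84 ± 0.15, adjusted p = 0.0194) and fell in KO (-0.92 ± 0.15, adjusted p = 0.0177). The rise was lost without WT library 1 (0.0519), WT library 2 (0.0937), OX library 1 (0.130) or OX library 2 (0.0935), and the fall without WT library 1 (0.0765), OX library 1 (0.0552), OX library 2 (0.0542), KO library 1 (0.0767) or KO library 2 (0.121).

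Os02g0602100, similar to the cell-division-cycle-like kinase CDC2L2, gave 79.9 and 71.7 CPM in WT, 115 and 110.2 in OX, with 188 and 185 in KO. It rose in OX (0.57 ± 0.07, adjusted p = 0.00485) and in KO (1.30 ± 0.07, adjusted p = 0.000320), in all 13 alternatives. Os04g0416100, similar to E2F1, a transcription factor of entry into DNA synthesis, gave 1.55 and 1.30, 5.17 and 3.54, and 6.48 and 7.42 CPM. Its KO rise was 2.28 ± 0.28 (adjusted p = 0.00633), and its OX rise of 1.61 ± 0.28 (adjusted p = 0.0189) was lost without WT library 1 (0.0711), WT library 2 (0.104) or OX library 1 (0.0841). Over the 90 listed transcripts outside the members that carry the term cell cycle, of which 86 were tested, 18 were called higher and 5 lower in OX against WT, 16 higher and 3 lower in KO against WT, and 12 higher and 15 lower in OX against KO. Their higher calls made up 20.9% in OX and 18.6% in KO, below the 25.0% of all tested transcripts, and their lower calls 5.81% and 3.49%, below 19.0% and 11.0%. In OX against KO the higher and lower calls made up 14.0% and 17.4%, beside 13.3% and 25.0%.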

How the data were processed

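Poly(A) RNA from rice leaves was sequenced in 6 libraries, 2 per genotype, with the TruSeq Stranded mRNA kit per the labels' protocols. Per the submitters' processing notes the genome build is IRGSP-1.0. The sources used here do not name the aligner, the counter, its strand setting or the authors' test. The deposited table is the authors' selection of 7194 transcripts out of 27384 tested, a number recovered from the ratio of their adjusted to unadjusted p-values. It gives the authors' estimated counts per transcript, whole numbers of at least 1, of which 99.84% equal the deposited FPKM turned back into reads and rounded up (to within 0.02 of a read). FPKM values were scaled by the authors to length and depth, and TPM values were scaled by the authors over all transcripts. The authors' log2 normalised values gave their effective library totals, which were 0.795 to 1.05 times the 28374212 to 33404887 reads per library. The authors' signed fold change is held as a score, and their deposited p-values are unadjusted and adjusted.

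Counts as deposited were tested with edgeR 4.0.16 (quasi-likelihood, robust, R 4.3.3) in 1 fit of all 6 libraries, with the effective totals as library sizes. The filter filterByExpr kept 7034 transcripts, all 94 members among them. Benjamini-Hochberg adjustment ran over 27384 transcripts, with unlisted ones ranked after every listed one, and a call needs an adjusted p below 0.05. Standard errors are the log2 fold change divided by the square root of edgeR's F. The biological coefficient of variation was 0.291. Alternatives were DESeq2 1.42.0 (Wald test and size factors), TMM, plain totals, no filter, a replicate block, counts summed per gene and each library left out, with the lone library then assumed to vary like the others. The fit was tested on simulated data. The simulated counts took their means and spread from the listed transcripts and did not imitate the authors' selection. They therefore cannot show how that selection affects the p-values. Members and lists were chosen with earlier results of these data known. Named are all called members, both H1 genes, the most abundant member of each role, and, of the other lists, the called transcripts with the 3 lowest adjusted p in each comparison. Marker lists of senescence, root, and pollen or anther gave 3 higher and 5 lower of 12, 1 and 2 of 12, and 3 and 0 of 6 in OX, and 3 and 2, 5 and 0, and 2 and 0 in KO. As shares these were 25.0% and 41.7%, 8.33% and 16.7%, and 50.0% and 0.0% in OX. In KO they were 25.0% and 16.7%, 41.7% and 0.0%, and 33.3% and 0.0%. All tested transcripts had 25.0% and 19.0% in OX, and 25.0% and 11.0% in KO. Edits to word lists after the files were seen added calcyclin to the word matches and dropped an FtsH protease and a fatty acid condensing enzyme from the division genes.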

Additional observations from a re-analysis of the deposited data

How the results depend on the processing

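No direction of a called value was reversed in any of the 13 alternatives, and both H1 genes kept their calls in all 3 comparisons. Numbers of called members moved more. With DESeq2 size factors, 11 members were called higher in KO against WT, and 16 higher and 11 lower in OX against KO. With TMM factors the same counts were 13, 16 and 10. Without the F-box proteins and the word match, 9 were lower in OX against WT, 12 higher in KO against WT, and 9 lower in OX against KO. With 1 library left out, 4 to 9 were higher and 10 to 14 lower in OX against WT, 10 to 16 higher and 9 to 13 lower in KO against WT, and 6 to 10 higher and 8 to 17 lower in OX against KO. With the replicate block the counts were 10 higher and 14 lower in OX against WT, 16 and 12 in KO against WT, and 9 and 13 in OX against KO. Same-numbered libraries deviated together only weakly (correlations 0.0771, 0.0232 and 0.0159 for WT with OX, WT with KO and OX with KO). With so few libraries this cannot show whether same-numbered libraries shared a harvest or batch, so the block is not a known pairing. Of 104 calls of named transcripts, 51 held in every alternative and 53 were lost in at least 1, of which 29 under a scaling. Why any of these calls moved was not tested beyond what each alternative leaves out. Members under about 2 CPM rest on few reads, and for these a missed call shows only that no difference was detectable at this depth.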
